A study of Homo sapiens with 4 samples.

Results

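The BMP pathway and its ID target genes were followed in a human cell line depleted of the DNA topoisomerase TOP2B. The set held 10 genes listed by symbol, out of 60725 genes in the count table. They are the ligands BMP2 and BMP4, the secreted antagonist GREM1, the receptors BMPR1A and BMPR2, the inhibitory SMAD6, and ID1, ID2, ID3 and ID4. RNA was sequenced from RPE1 SunTag cells, an hTERT-immortalized retinal pigment epithelial line that carries the SunTag system in all samples. Control cells received Silencer Select Negative Control No. 2 siRNA (labelled scramble), and TOP2B knockdown cells received the Dharmacon siRNA pool against TOP2B, each at 10 nM. Cells were transfected a second time after 48 h and collected 72 h later, on day 5, with 2 replicates per group that the study calls biological and independent. All samples came from a single cell line, and the groups differ in the siRNA reagent as well as in TOP2B, so that an effect of the reagent and one of TOP2B loss cannot be told apart.

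Bone morphogenetic proteins (BMPs) are secreted dimers that bind a type I receptor such as BMPR1A together with the type II receptor BMPR2. The active receptor phosphorylates SMAD1, SMAD5 and SMAD9, which enter the nucleus with SMAD4 and switch on genes such as ID1, ID2, ID3 and SMAD6. Gremlin-1, noggin and the chordin family trap the ligands outside the cell, and SMAD6 acts as a feedback inhibitor inside it. The ID proteins are helix-loop-helix factors without a DNA-binding region, which hold E proteins such as TCF3 away from DNA. In the developing eye BMP signals take part in the specification of the pigment epithelium.

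The sequences upstream of ID1, ID2 and ID3 are shown because these members were all higher in replicate 2 than in replicate 1 of both groups, by more than most genes. Each run holds the 250 bases before the RefSeq transcription start (GRCh38.p14), read 5′ to 3′ on the strand of the gene. Capitals mark matches on either strand to TATAAA (the TATA box), TGACG (the core of the cyclic AMP response element), CAGAC (the SMAD box) or GGCGCC (a GC-rich word bound by BMP-activated SMADs). The windows lie at chr20:31605039-31605288 (plus strand) for ID1, chr2:8681806-8682055 (plus strand) for ID2 and chr1:23559502-23559751 (minus strand) for ID3.
ID1: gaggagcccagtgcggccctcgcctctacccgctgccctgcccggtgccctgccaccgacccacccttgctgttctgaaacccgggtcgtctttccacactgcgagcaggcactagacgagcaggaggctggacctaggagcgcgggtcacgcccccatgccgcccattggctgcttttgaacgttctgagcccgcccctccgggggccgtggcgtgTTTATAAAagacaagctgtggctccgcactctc
ID2: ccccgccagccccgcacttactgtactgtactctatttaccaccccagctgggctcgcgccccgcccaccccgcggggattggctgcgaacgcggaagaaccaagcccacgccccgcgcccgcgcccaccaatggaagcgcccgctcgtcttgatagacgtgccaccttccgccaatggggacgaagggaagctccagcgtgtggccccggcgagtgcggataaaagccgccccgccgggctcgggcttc
ID3: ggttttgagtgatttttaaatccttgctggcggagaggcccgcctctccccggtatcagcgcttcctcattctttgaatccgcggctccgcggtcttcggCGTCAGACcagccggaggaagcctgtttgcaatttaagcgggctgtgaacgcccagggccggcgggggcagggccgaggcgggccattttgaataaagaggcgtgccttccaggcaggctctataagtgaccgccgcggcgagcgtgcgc

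The ID1 window held TATAAA at 31 bases before the start, overlapped by its match on the other strand at 33 bases. The ID3 window held TGACG (on the other strand) at 150 bases and CAGAC at 147 bases before the start, with shared letters. The ID2 start of RefSeq lies inside the GENCODE span of the gene. The ID2 window held none of the 4 words, and GGCGCC was in none of the 3 windows. Of 35116 RefSeq promoter windows of this length, 10.7% held TATAAA, 21.2% TGACG, 38.0% CAGAC and 16.4% GGCGCC. GC content was 66.0%, 69.2% and 62.0% in the ID1, ID2 and ID3 windows. These matches describe letters in a short window and say nothing of factor binding. The promoter table matched 9 of the 10 members. BMP2 had no entry.

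Between 20310259 and 23887013 reads were counted per library, so that a level of 1 CPM (the read count of a gene relative to the TMM-scaled size of its library) rested on 20.2 to 24 reads. The knockdown target TOP2B stood at 154.7 and 143.4 CPM in control replicates 1 and 2 and at 15.3 and 13.3 CPM in TOP2B knockdown replicates 1 and 2, which left 9.58% of the control mean. Of 8 markers of pigment epithelium, RPE65, TYR and TTR had 0 counts in every library and RLBP1 at most 1 count. The early pigment cell factors MITF and OTX2 of the same list were at 38.1 to 44.8 CPM and 11.2 to 13.4 CPM. Of the marker genes with enough reads to be tested, called changes were found in 0 of 4 pigment epithelium markers, 0 of 2 keratins, 0 of 2 endothelial markers and 1 of 3 mesenchymal markers (FN1, higher), and in 1 of 2 neuronal markers (SYT1, lower). All 4 tested pigment epithelium markers were higher in both knockdown than in both control libraries, though BEST1 rested on 14 to 20 and PMEL on 7 to 31 reads. The list sum was 51.8 and 50.3 CPM in the control and 58.15 and 59.4 CPM in the knockdown libraries, most of it from MITF and OTX2. The keratins KRT8 and KRT18 were lower without overlap (log2 fold changes -0.35 and -0.39). Of all tested genes, 27.7% lay above and 26.6% below without overlap. The 3 blood markers summed to 0.198 to 0.459 CPM and were not tested. The endothelial markers summed to 1.63 and 1.49 CPM in the control and 0.801 and 0.694 CPM in the knockdown libraries, and the neuronal markers to 77.9 and 68.0 CPM and to 58.2 and 51.1 CPM. Their part in the results was not tested.

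One member changed past the threshold. Calls were made at an adjusted p below 0.05 in edgeR's quasi-likelihood test, with Benjamini-Hochberg adjustment over all 15356 genes that had at least 10 reads in at least 2 libraries. Of the 9 members that could be tested, 0 were called higher and 1, BMP4, was called lower. Over all genes tested, 6.66% were called higher and 4.18% lower, 10.8% in either direction, so that the share among the members is close to the background. At an unadjusted p below 0.05 there were 1 higher (BMP2) and 2 lower members (BMP4 and ID2), and the Wald test of DESeq2 called 0 higher and 1 lower, which was again BMP4. The median log2 fold change was -0.039 over the tested members and -0.0029 over all genes tested. In 4 of the 9, the knockdown libraries lay entirely on one side of the control libraries, 1 above (BMP2) and 3 below (BMP4, SMAD6 and ID2), whereas 27.7% of all tested genes lay above and 26.6% below, 54.3% together. The tenth member, ID4, had 0 counts in all libraries, which at a floor of 3 counts allows up to 0.125 to 0.149 CPM per library for counting error.

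**Figure D1:**
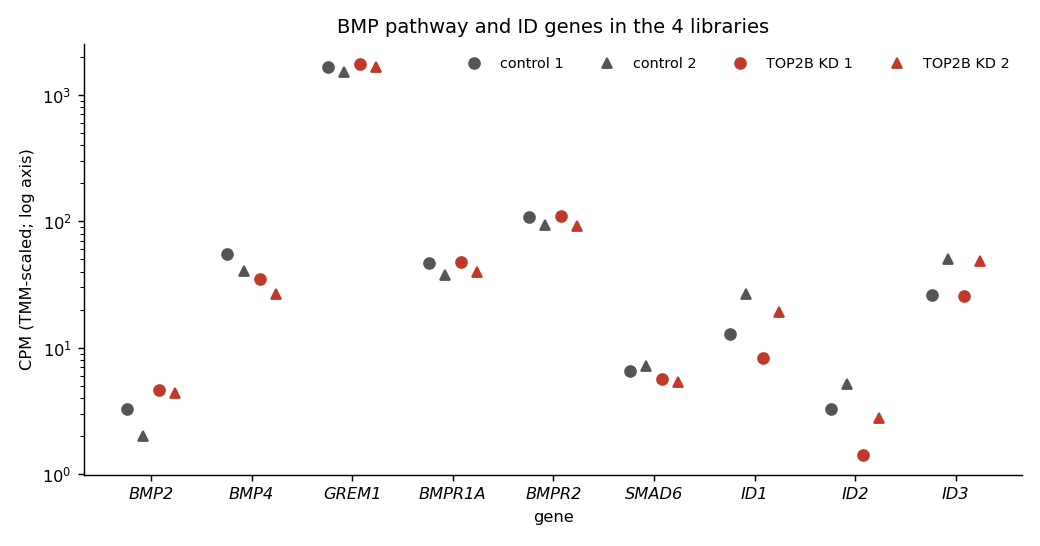
Level of the 9 detected members in each library, in TMM-scaled CPM on a log axis. Grey marks are control and red marks TOP2B knockdown libraries, with circles for replicate 1 and triangles for replicate 2, and the panel shows GREM1 at 1504 CPM or more in all libraries and the triangles of ID1, ID2 and ID3 above the circles in both groups.

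Levels of different genes were compared as CPM per kb of exon, on the scale of control means with their SD (n = 2). GREM1 stood first with 106.9 ± 7.24, far above the other members. It was followed by ID3 with 25.5 ± 11.3, ID1 with 16.0 ± 7.94 and BMP4 with 15.45 ± 3.23. ID3 was above ID1 within each control library (17.5 against 10.4 and 33.5 against 21.6). BMP4, at 17.7 and 13.2, was above both in control replicate 1 and below both in control replicate 2, so that its place is not resolved. BMPR2 was at 8.065 ± 0.926, BMPR1A at 4.195 ± 0.630 and ID2 at 1.90 ± 0.585, with no overlap between these neighbours. SMAD6 at 0.8002 ± 0.0562 and BMP2 at 0.749 ± 0.255 overlapped with each other at the lower end. BMP4 was the more abundant of both listed ligands, with 16.7 and 20.2 times the CPM of BMP2 in the control libraries. In the knockdown libraries these ratios were 7.47 and 6.10.

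BMP4 (ENSG00000125378, chromosome 14 from 53949736 to 53958761 on the minus strand, GRCh38), a ligand of eye and mesoderm development, was at 54.9 and 40.8 CPM in control replicates 1 and 2 and at 34.9 and 26.6 CPM in knockdown replicates 1 and 2. Both knockdown libraries lay below both control libraries, and the means were 47.8 ± 9.99 CPM (control) and 30.7 ± 5.85 CPM (knockdown, SD, n = 2), or 64.3% of control. Its log2 fold change was -0.64 (standard error, SE, 0.18), with a 95% interval from -1.03 to -0.25 (adjusted p = 0.0459, edgeR), close to the threshold. The call was lost without control replicate 1 (log2 fold change -0.41, adjusted p = 0.175, edgeR) and without TOP2B knockdown replicate 2 (-0.47, adjusted p = 0.126, edgeR), and over all 4 fits without one library the value ran from -0.84 to -0.41. It was also lost with library size alone as the scaling (adjusted p = 0.0519, edgeR) and with genes of a mean of at least 100 counts (0.0748). The call held with the size factors of DESeq2 (adjusted p = 0.0433, edgeR) and without a filter (0.000526). In the Wald test of DESeq2 it held as well (log2 fold change -0.65, adjusted p = 0.0122). Of its exon bases, 16.3% also belong to another annotated gene (ENSG00000287156), and the strand setting of the counting was not stated. In bulk RNA, fewer cells that make a transcript and less of it per cell cannot be told apart.

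BMP2 (ENSG00000125845, chromosome 20 from 6767686 to 6780246), the closest relative of BMP4, had 79 and 46 reads in the control and 99 and 88 reads in the knockdown libraries. These are 3.29 and 2.02 CPM against 4.67 and 4.36 CPM, so that both knockdown values lay above both control values, opposite in sign to BMP4. The log2 fold change of 0.76 (SE 0.26, 95% interval from 0.17 to 1.35) did not pass the test (adjusted p = 0.0984, edgeR). Without control replicate 1 it was 1.16 and passed (adjusted p = 0.0113, edgeR), and without control replicate 2 or either knockdown library it did not pass. Of 11 other ligands of the family, 1 had enough reads to be tested. This was GDF6, a ligand known from eye and joint development, with 30.8 and 23.4 CPM in the control libraries, 34.4 and 27.3 CPM in the knockdown libraries and overlapping groups (log2 fold change 0.19, SE 0.17, adjusted p = 0.528, edgeR). The other 10 ligands had between 0 and 16 reads in any library, and 3 of them, BMP5, BMP10 and GDF2, had none.

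GREM1 (ENSG00000166923, chromosome 15 from 32718004 to 32745106), a secreted protein that binds BMP2 and BMP4 and keeps them from their receptors, was by far the most abundant member. It was at 1655 and 1504 CPM in the control and 1766 and 1654 CPM in the knockdown libraries, and the groups overlapped. The log2 fold change was 0.11 with a 95% interval from -0.24 to 0.47 (adjusted p = 0.706, edgeR). The CPM of GREM1 per CPM of BMP4 was 30.2 and 36.9 in the control libraries and 50.6 and 62.2 in the knockdown libraries. This ratio is not scaled to exon length (14784 bases in GREM1 and 3096 in BMP4). Its group difference mostly restates the lower BMP4 level (log2 fold change -0.64). The ratio was formed after the values were seen and carries no test.

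Among 13 other extracellular antagonists, 8 were tested, of which 1 was called higher and 3 were called lower, beside 6.66% and 4.18% of all genes tested. The list was chosen with earlier results of these data known, so that this share is no test of the antagonists as a group. FST (follistatin, which binds activins most tightly and some BMPs) rose from 75.6 and 58.3 CPM in the control to 257.1 and 208.3 CPM in the knockdown libraries. Its log2 fold change was 1.80 (SE 0.16, 95% interval from 1.43 to 2.16, adjusted p = 0.000498, edgeR). BMPER, a chordin-like protein that binds BMPs in the matrix, moved the other way and fell from 60.01 and 68.45 CPM to 22.6 and 25.3 CPM, or 37.3% of the control mean. Its log2 fold change was -1.42 (SE 0.13, 95% interval from -1.72 to -1.13, adjusted p = 0.000498, edgeR). The calls of FST and BMPER held in each fit without one library, within 1.62 to 2.00 and -1.52 to -1.33.

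CHRDL1 (chordin-like 1), which binds BMP4, was the most abundant of these other antagonists per kb of exon in control cells (81.1 ± 12.04 CPM per kb, SD, n = 2). It was at 351.4 and 284.7 CPM in the control and 225.7 and 196.7 CPM in the knockdown libraries. The log2 fold change was -0.59 (SE 0.15, adjusted p = 0.0346, edgeR). NOG (noggin), a secreted protein that blocks the receptor contacts of BMPs, was at 7.26 and 6.97 CPM in the control and 4.57 and 3.02 CPM in the knockdown libraries, which the test called lower (log2 fold change -0.90, SE 0.23, adjusted p = 0.0321, edgeR). In both genes the groups did not overlap. The CHRDL1 call was lost without control replicate 1 (-0.43, adjusted p = 0.219, edgeR), without TOP2B knockdown replicate 1 (-0.69, adjusted p = 0.054) or without TOP2B knockdown replicate 2 (-0.51, adjusted p = 0.196), and the NOG call without TOP2B knockdown replicate 2 (-0.65, adjusted p = 0.155). The other 4 tested antagonists, FSTL1, FSTL3, TWSG1 and NBL1, had log2 fold changes from -0.17 to 0.09 and were not called.

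**Figure D2:**
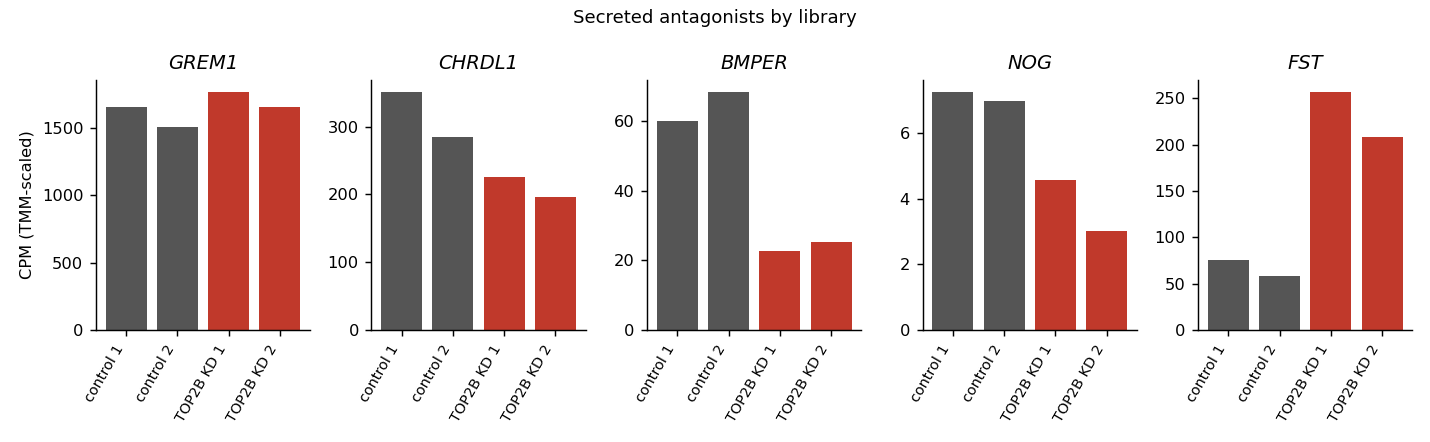
TMM-scaled CPM of GREM1 and of the 4 other antagonists called changed, 1 bar per library, each panel with its own axis from 0. Grey bars are control and red bars TOP2B knockdown libraries, and CHRDL1, BMPER and NOG are lower, FST higher and GREM1 overlapping between the groups.

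The receptors did not change past the threshold. BMPR2 (ENSG00000204217, chromosome 2 from 202376327 to 202567751), the type II receptor of the BMPs, was at 109.0 and 92.6 CPM in the control and 109.4 and 91.5 CPM in the knockdown libraries. The difference was smaller than that between replicates of either group (log2 fold change -0.01, 95% interval from -0.31 to 0.30, adjusted p = 0.986, edgeR). BMPR1A (ENSG00000107779, chromosome 10 from 86756596 to 86932825), a type I receptor, was at 46.8 and 37.8 CPM and at 47.6 and 40.1 CPM, again with overlapping groups (log2 fold change 0.05, 95% interval from -0.27 to 0.38, adjusted p = 0.858, edgeR). For both genes the sign turned when single libraries were left out, within -0.13 to 0.12 for BMPR2 and -0.09 to 0.22 for BMPR1A.

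Of 9 other receptors and co-receptors 5 were tested, of which 0 were called by edgeR or DESeq2, with 1 at an unadjusted p below 0.05. Over all genes tested, edgeR called 6.66% higher and 4.18% lower. All 5 had fitted values below 0, from -0.62 to -0.10. RGMB, a membrane-anchored BMP co-receptor and the most abundant of them per kb of exon (12.6 ± 0.489 CPM per kb in control cells, SD, n = 2), was at 85.7 and 81.2 CPM in the control and 68.4 and 57.4 CPM in the knockdown libraries. Its log2 fold change of -0.41 did not pass (SE 0.13, adjusted p = 0.0715, edgeR), and 45.8% of its exon bases overlap other annotated genes, among them its antisense gene RGMB-AS1, so that its count is uncertain. BMPR1B, the other BMP type I receptor of this kind, had 1 to 10 reads per library and was not tested.

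SMAD6 (ENSG00000137834, chromosome 15 from 66702236 to 66782849), the inhibitory SMAD of the BMP branch and itself a BMP target gene, had 156 and 164 reads in the control and 120 and 109 reads in the knockdown libraries. These are 6.51 and 7.19 CPM against 5.65 and 5.40 CPM, without overlap. The log2 fold change was -0.31 (SE 0.18, 95% interval from -0.71 to 0.10) and did not pass the test (adjusted p = 0.321, edgeR). All 13 other intracellular genes of the pathway were tested, of which 1 was called higher and 1 lower, beside 6.66% and 4.18% of all genes tested. SMURF1, a ubiquitin ligase that marks BMP-branch SMADs for degradation, was higher, with 62.1 and 51.1 CPM in the control and 81.7 and 78.3 CPM in the knockdown libraries (log2 fold change 0.50, SE 0.13, adjusted p = 0.0374, edgeR). Of the SMURF1 exon bases, 11.7% are shared with TRRAP. CTDSPL, a small phosphatase, was lower, with 50.3 and 59.9 CPM against 39.1 and 40.7 CPM (log2 fold change -0.46, SE 0.13, adjusted p = 0.0473, edgeR). Neither call held without control replicate 2 (0.37 and -0.33), TOP2B knockdown replicate 1 (0.47 and -0.43) or TOP2B knockdown replicate 2 (0.52 and -0.51), where the adjusted p ran from 0.0651 to 0.338 (edgeR). SMURF2, the relative of SMURF1 and the most abundant gene of this group per kb of exon, was at 176.0 and 178.0 CPM in the control and 152.5 and 154.3 CPM in the knockdown libraries, with close replicates and a log2 fold change of -0.21 that did not pass (adjusted p = 0.310, edgeR). The other 10, the receptor-activated SMAD1, SMAD5 and SMAD9 among them, had fitted values from -0.44 to 0.32 and were not called.

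**Figure D3:**
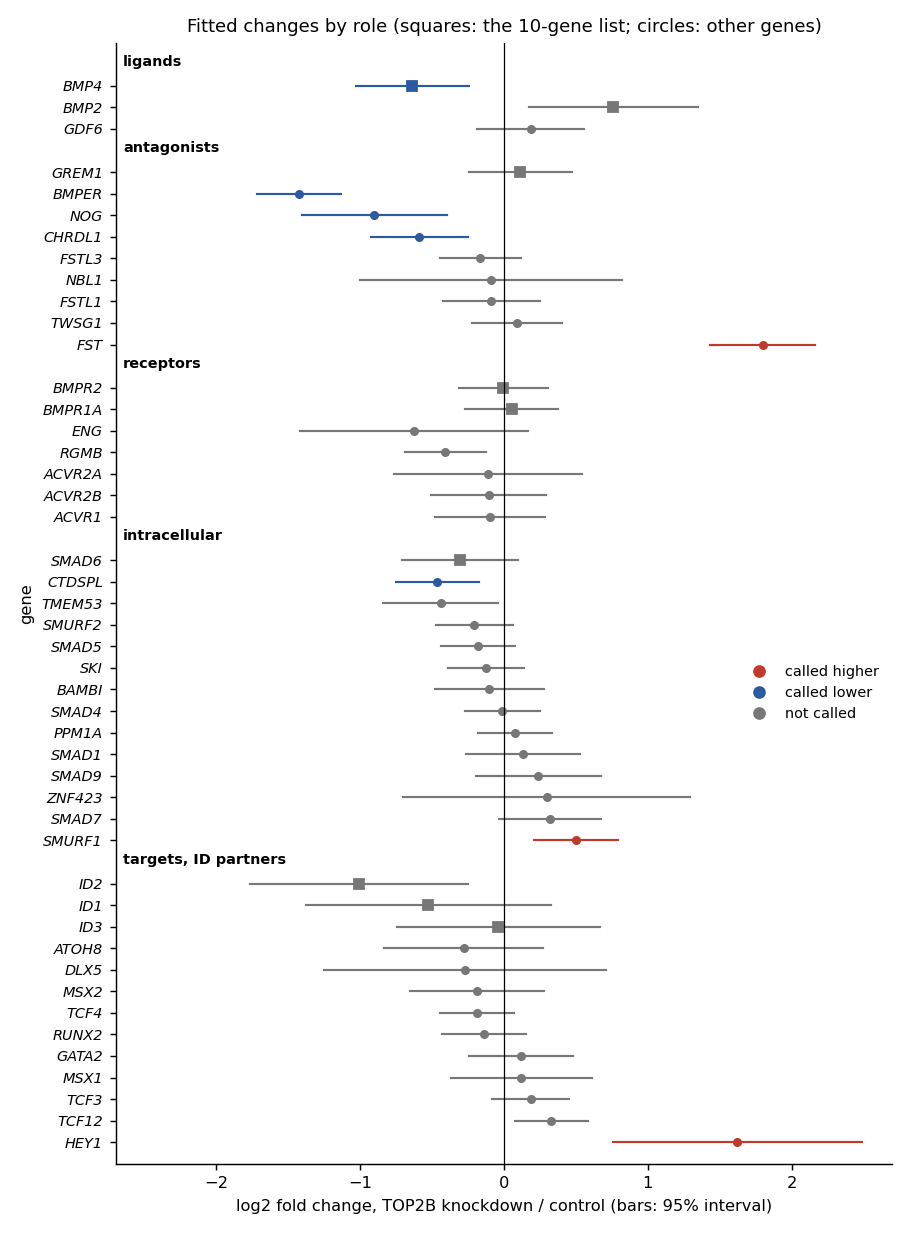
Fitted log2 fold change (TOP2B knockdown against control) with its 95% interval for each tested gene, grouped by role, with squares for the 9 tested members and circles for 37 other pathway genes. Red marks genes called higher, blue genes called lower and grey genes not called, with BMP4 the only blue square and the widest intervals of the squares at ID1, ID2 and ID3.

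Among the tested members, ID1, ID2 and ID3 were set apart by a rise from replicate 1 to replicate 2 in both groups. The spread alone did not set them apart, as the control replicates of BMP2 differed by -0.685 on the log2 scale and those of ID2 by 0.62. ID1 (ENSG00000125968, chromosome 20 from 31605283 to 31606515) was at 12.8 and 26.6 CPM in control replicates 1 and 2 and at 8.25 and 19.2 CPM in knockdown replicates 1 and 2. The second replicate was more than 2-fold above the first in both groups, and the groups overlapped. The log2 fold change was -0.53 (SE 0.38), with a 95% interval from -1.37 to 0.32 (adjusted p = 0.424, edgeR). Between libraries of the same replicate number the difference was -0.63 and -0.47 on the log2 scale. Leaving out 1 library leaves the replicates unbalanced between the groups, and the value moved with it. It was 0.10 without control replicate 2 (adjusted p = 0.886, edgeR), whereas it was called lower without control replicate 1 (-0.96, adjusted p = 0.000153) and without TOP2B knockdown replicate 2 (-1.27, adjusted p = 9.12e-06).

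ID3 (ENSG00000117318, chromosome 1 from 23557926 to 23559501 on the minus strand), the most abundant ID gene, was at 26.2 and 50.1 CPM in the control and 25.5 and 48.7 CPM in the knockdown libraries. Libraries with the same replicate number were nearly level, while the 2 replicates of a group were nearly 2-fold apart (0.93 on the log2 scale in either group). Its log2 fold change was -0.04 with a 95% interval from -0.75 to 0.67 (adjusted p = 0.956, edgeR). Without one library the value ran from -0.60 to 0.50, and it was called only without TOP2B knockdown replicate 2 (-0.60, adjusted p = 0.0384).

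ID2 (ENSG00000115738, chromosome 2 from 8678845 to 8684461) was the least abundant of the detected ID genes, with 79 and 117 reads in the control and 30 and 56 reads in the knockdown libraries. These are 3.29 and 5.13 CPM against 1.41 and 2.77 CPM, with both knockdown libraries below both control libraries and a knockdown mean at 49.7% of control. The log2 fold change of -1.01 (SE 0.34, 95% interval from -1.77 to -0.25) did not pass the test (adjusted p = 0.0894, edgeR). It was called lower without control replicate 1 (-1.30, adjusted p = 0.00162, edgeR) and without TOP2B knockdown replicate 2 (-1.58, adjusted p = 0.00127), and was not called without control replicate 2 (-0.66) or without TOP2B knockdown replicate 1 (-0.59). Of its exon bases, 6.55% are shared with ID2-AS1.

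**Figure D4:**
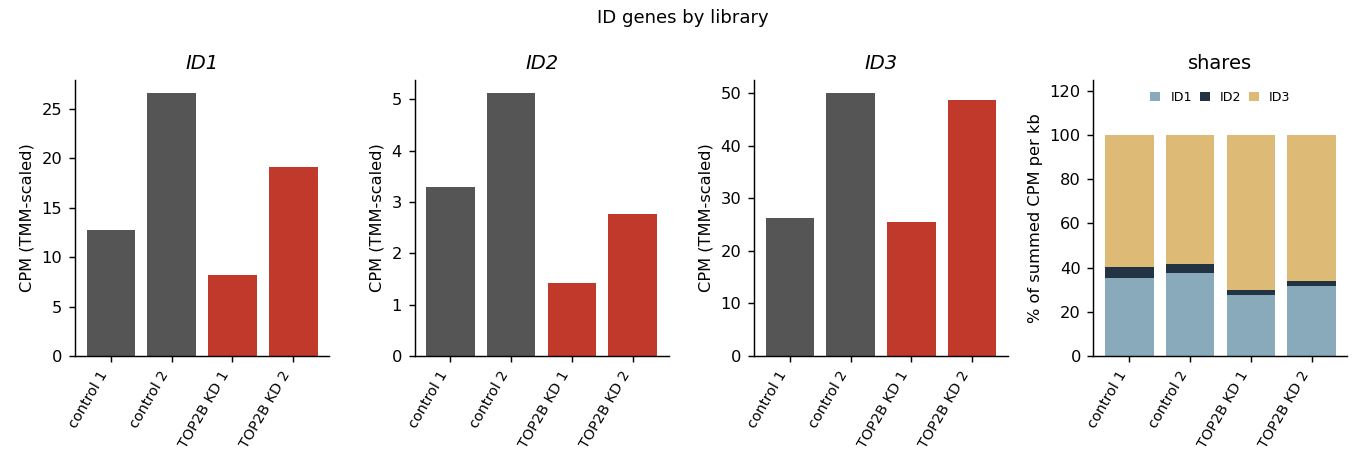
TMM-scaled CPM of ID1, ID2 and ID3 in each library (bars from 0, grey for control, red for TOP2B knockdown), and the share of each in the sum of their CPM per kb of exon. The bars of replicate 2 are the higher ones in both groups for all 3 genes, and the ID3 share is 59.6% and 58.3% in the control and 69.9% and 66.0% in the knockdown libraries.

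The replicate difference was shared by the 3 ID genes and was large beside other genes. On the log2 CPM scale, replicate 2 exceeded replicate 1 by 1.05, 0.62 and 0.93 for ID1, ID2 and ID3 in control cells and by 1.21, 0.93 and 0.93 in knockdown cells. The median size of this difference over all tested genes was 0.198 in control and 0.194 in knockdown cells. An excess of replicate 2 over replicate 1 of at least 0.62 in both groups, the smallest of these values, was seen in 74 of 15356 genes (0.482%). BMP2, BMP4, GREM1, BMPR1A and BMPR2 went the other way, with differences from -0.685 (BMP2, control) to -0.094 (GREM1, knockdown). Other BMP targets were mixed. SMAD6 was at 0.14 in control and -0.066 in knockdown cells. HEY1, with 9 to 29 reads per library, was at 0.30 and -0.080, and GATA2 at -0.044 and -0.169. ATOH8 rose in replicate 2 of both groups, by 0.44 and 0.80, and so did the intracellular gene SMAD7, by 0.31 and 0.31. DLX5 (0.10 and 1.51, on 15 to 44 reads), MSX1 (0.037 and 0.32) and RUNX2 (0.018 and 0.26) were also higher in replicate 2 of both groups. MSX2 was at 0.056 and -0.096. Whether the replicates were made on different days or in different ways is not given in the sources used here.

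The ID genes were also expressed as shares of their own sum within each library, which moved between replicates as well, since the replicate difference was not of 1 size in the 3 genes. Of the summed CPM per kb of ID1, ID2 and ID3, ID1 made up 35.3% and 37.6% in the control libraries and 27.4% and 31.5% in the knockdown libraries. ID2 made up 5.07% and 4.04% against 2.62% and 2.54%. ID3 made up 59.6% and 58.3% against 69.9% and 66.0%. The shares of a library add up to its whole, so that the higher ID3 share mirrors the lower ID1 and ID2 shares, while the level of ID3 itself had a log2 fold change of -0.04. The shares were computed after the values were seen, rest on 746 to 1868 reads per library, and carry no test.

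Of the 11 other target genes and ID partners, 10 were tested, of which edgeR called 1 higher and 0 lower, beside 6.66% and 4.18% of all genes tested. Of these 10, 2 were higher and 0 lower at an unadjusted p below 0.05, and DESeq2 called 0 in either direction. The called gene was HEY1, a repressor switched on by Notch and BMP signals. It had 9 and 11 reads in the control and 29 and 26 reads in the knockdown libraries, which the test called higher (log2 fold change 1.62, SE 0.39, adjusted p = 0.0265, edgeR). The call was lost without control replicate 1 (1.45, adjusted p = 0.0961, edgeR) and without TOP2B knockdown replicate 1 (1.58, adjusted p = 0.0617), and DESeq2 gave no adjusted p at these counts. TCF3, an E protein that ID proteins bind and the most abundant of this group per kb of exon, was at 83.1 and 91.8 CPM in the control and 96.1 and 102.6 CPM in the knockdown libraries, and was not called (adjusted p = 0.369, edgeR). Over the 57 other pathway genes, 37 were tested and 20 had too few reads, and the median log2 fold change of the tested genes was -0.102. Of these 37, edgeR called 3 higher and 4 lower, beside 10.8% of all genes tested in either direction.

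The word GCAACC, which was more frequent in the 3′ UTRs of genes called higher in these libraries (39.1% of 942) than of all tested genes (23.4% of 12517), was looked up in the canonical transcripts of GENCODE v44. Of the 9 tested members 2, GREM1 and BMPR2, held it once each (22.2%), and BMP2, BMP4, BMPR1A, SMAD6, ID1, ID2 and ID3 did not hold it. GREM1 and BMPR2 have the longest 3′ UTRs of these members (13861 and 7803 bases, against 296 to 4250 in those without it). The shares were not adjusted for 3′ UTR length. Of the 37 other tested pathway genes 10 held it (27.0%), of which SMURF1, with 2 sites, was called higher and the other 9 (GDF6, ACVR2B, SMAD4, SMAD5, SMAD9, SMURF2, ZNF423, RUNX2 and GATA2) were not called. The called genes FST and HEY1 (higher) and NOG, CHRDL1, BMPER and CTDSPL (lower) did not hold it. SMURF1, FST and HEY1 are themselves among the genes called higher in which the word was more frequent. The look-up is therefore no independent test of the word. The sites are shown with the word in capitals, 5′ to 3′ on the strand of the gene, since SMURF1 is a gene called higher that carries them and GREM1 and BMPR2 are members that carry one and were not called. They lie at chr15:32744222-32744251 (GREM1, plus strand), chr2:202562920-202562949 (BMPR2, plus strand), and chr7:99030563-99030583 and chr7:99030275-99030304 (SMURF1, minus strand).
GREM1: tttctatcacttGCAACCaaagtgccctaa
BMPR2: ttaaacctcagaGCAACCatatgagcattg
SMURF1 site 1: aaaGCAACCaaaggcaacaga
SMURF1 site 2: ttctgctgtgttGCAACCcatgtggtgata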

How the data were processed

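Libraries of 2 control and 2 TOP2B knockdown samples were prepared with the TruSeq RNA LT kit and sequenced single-end (65 bp). Read quality was checked with FastQC 0.11.6 and reads were mapped to GRCh38 with STAR 2.5.4a, per the submitters' processing notes. The authors deposited raw counts per gene (Gencode v24), not normalized. Each column is present again with the same values, and these 4 repeats were left out. Headers mention stranded paired-end data, unlike the methods, and how strand was treated in counting is not given in the sources used here.

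Of the deposited counts, 15356 genes passed a minimum of 10 in 2 or more libraries. They were fitted with edgeR 4.0.16 under R 4.3.3 (quasi-likelihood test, TMM factors, group as sole term, p-values adjusted by Benjamini-Hochberg), since the study states no tool for RNA-seq testing. The SE is the fold change over the root of F. Log2 CPM used a prior count of 2. The floor was 3 counts. SE and intervals (95%) rest on a variance that edgeR moderates over all tested genes, with 2 replicates per group. They do not measure the spread of a gene's own replicates alone. Positions, exon lengths, exon overlap and 3′ UTRs came from GENCODE v44 (GRCh38), so that lengths may differ from Gencode v24. Promoters came from RefSeq (GRCh38.p14).

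The members and lists were chosen with earlier results of these data known. Named were all 10 members, each other pathway gene that was called, the gene of each role with the most control CPM per kb, and TOP2B. Other BMP target genes were also named where replicate differences are given. Marker lists covered pigment epithelium, keratins, mesenchymal, endothelial, blood and neuronal cells. Alternatives were other scalings, no filter or a mean of at least 100 counts, DESeq2 1.42.0, the replicate number as a block, and leaving out each library, where a lone library is assumed to vary like the others. The script was tested on simulated data.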

Additional observations from a re-analysis of the deposited data

How the results depend on the processing

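Over the scalings, filters, tests and libraries left out, the count of members called lower was 0 with library size alone and 0 with genes of a mean of at least 100 counts (BMP4 lost, at -0.64 and -0.63, adjusted p = 0.0519 and 0.0748, edgeR), 3 without a filter and 3 with the replicate block (BMP4, ID1 and ID2), and 1 to 3 without one library. The count called higher was 1 without a filter (BMP2), 2 with the replicate block (BMP2 and GREM1) and 0 to 1 without one library. Without a filter, BMP2 (0.76), ID1 (-0.54) and ID2 (-1.02) passed at adjusted p of 0.0206, 0.0199 and 0.00121. The cause was not tested. Of the other pathway genes, 7 were called higher and 12 lower with the replicate block, 2 lower (NOG and BMPER) at a mean of at least 100 counts, and 1 to 2 higher and 2 to 3 lower without one library. Over all genes, 1358 were called higher and 985 lower without a filter, against 1023 and 642. With DESeq2, HEY1 had no adjusted p.

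Replicate numbers are shared between the groups, and no label says what they mark. Over 15356 genes the difference between replicates 2 and 1 in control cells correlated with that in knockdown cells (Pearson's r 0.479, a description across genes). With the replicate block, edgeR called 3440 genes higher and 3346 lower, 44.2% of those tested. In that fit BMP2 was at 0.76 (adjusted p = 0.0047), GREM1 at 0.11 (0.0326), ID1 at -0.54 (0.000289) and ID2 at -1.02 (0.000651), past the threshold, and BMP4 at -0.64 (2.4e-06) kept its call, while ID3, SMAD6, BMPR1A and BMPR2 were not. With 2 replicates the pairing is a hint from the data and not part of the design.

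Without one library, the log2 fold change ranged from 0.45 to 1.16 for BMP2, -0.84 to -0.41 for BMP4, 0.05 to 0.18 for GREM1, -0.09 to 0.22 for BMPR1A, -0.13 to 0.12 for BMPR2, -0.38 to -0.23 for SMAD6, -1.27 to 0.10 for ID1, -1.58 to -0.59 for ID2 and -0.60 to 0.50 for ID3. The sign turned for BMPR1A (-0.09 leaving out control replicate 2, -0.07 leaving out TOP2B knockdown replicate 1), BMPR2 (0.12 leaving out control replicate 1, 0.10 leaving out TOP2B knockdown replicate 2), ID1 (0.10 without control replicate 2) and ID3 (0.50 leaving out control replicate 2, 0.36 leaving out TOP2B knockdown replicate 1). Under the other settings no member changed sign. ID4, BMPR1B and the ligands besides BMP2, BMP4 and GDF6 had too few reads for a test.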
